A study of Cynoglossus semilaevis with 6 samples.

Results

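Egg envelope, vitellogenin and estrogen receptor genes were followed in the liver of the tongue sole *Cynoglossus semilaevis*, as 8 of the 34751 transcript features measured. They belong to 7 genes and were chosen by gene identity: 5 egg envelope genes (zp3f.1, zp3f.2, zp3c, zpd and zpcx), the vitellogenin gene vtg3, and the estrogen receptor gene esr1, which has a pair of annotated transcripts. The question was how these genes of egg formation stood in livers of females kept at different salinities. All fish were 10-month-old females that had been reared at 30 ppt. The LS_L group was then held at 15 ppt and the HS_L group at 30 ppt for 60 days. RNA of 3 livers from the same tank was pooled into 1 library, with 3 such tank pools in each group, and the p-values therefore measure the spread between pools of different tanks.

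The egg envelope of a fish is an extracellular coat built from glycoproteins that share a zona pellucida (ZP) domain. Depending on the species and the gene, these proteins are made by the oocyte itself or by the liver of the female, which releases them into the blood. Vitellogenins, the precursors of egg yolk, are made by the liver and taken up by growing oocytes. Estradiol from the ovary drives the liver part of this programme through nuclear estrogen receptors, of which Esr1 is a ligand-activated transcription factor.

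The 6 libraries held between 16176689 and 19428740 reads counted on features. Reads were recovered from the deposited RPKM values and the feature lengths, and are given as normalized reads, which are reads divided by the size factor of the library. Levels of different genes are compared as scaled RPKM, which are normalized reads divided by the feature length and by the size of an average library, in the units of RPKM. Of 13 hepatocyte marker features, 11 to 13 had reads in every library and their summed scaled RPKM ran from 51460 to 137500. The apolipoprotein gene apoa1b alone had 23254 to 58177 scaled RPKM. Other markers on the list were low, with the 3 hnf4a transcripts, which overlap other features, at 0 to 0.377, apobb.1 at 0.287 to 1.54 and apoba at 1.24 to 7.56 scaled RPKM. The transthyretin gene ttr was uneven, at 1.66 and 3.78 in HS_L_1 and HS_L_2 and at 40.6 to 76.7 in the other pools.

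The 5 egg envelope genes were present at very unequal levels in the 6 tank pools, and high and low pools were found at both salinities. All of them were high in LS_L_2 and HS_L_1, intermediate in HS_L_2, and low in HS_L_3, LS_L_3 and LS_L_1. The gap between the highest and the lowest pool was between 51.0-fold and 468-fold. As counted, vtg3 and esr1 were close to the detection limit in all 6 pools. With all 6 pools in view, none of the 8 features separated the LS_L from the HS_L libraries.

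The genes zp3f.1 and zp3f.2 belong to the ZP3 family, whose members form part of the filaments of the egg coat. They lie next to each other on chromosome 20 on the plus strand, zp3f.2 at chr20:11811336-11813368 and zp3f.1 at chr20:11814013-11816174 in the assembly Cse_v1.0, with 644 bases between them. zp3f.1 (XM_008334747.1) had 2.49, 838 and 9.22 normalized reads in LS_L_1, LS_L_2 and LS_L_3, and 965, 330 and 33.9 in HS_L_1, HS_L_2 and HS_L_3. The highest LS_L pool thus lay above HS_L_2 and HS_L_3, and the groups overlapped. The value of LS_L_1 rested on 3 reads, so the 388-fold range from HS_L_1 down to LS_L_1 had a 95% counting interval of 132 to 1882. zp3f.2 (XM_008334746.1) had 1.66, 595 and 4.61 normalized reads in the LS_L pools in the same order, and 705, 235 and 10.6 in the HS_L pools. Its 6 libraries stood in the same order as those of zp3f.1, with HS_L_1 first and LS_L_1 last. The authors removed reads that mapped to several places. How many reads this cost these neighbouring genes was not tested.

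zp3c (XM_008317376.1, chr9:13824644-13827356, plus strand) is a further ZP3-type gene. Its normalized reads were 19.1, 746 and 19.6 in the LS_L pools and 974, 338 and 21.2 in the HS_L pools. By counted reads it stayed highest of the 5 genes in LS_L_1, at 19.1 normalized reads, while the deposited assembled transcripts, described further on, list zp3c at 0 FPKM in that pool. The range from HS_L_1 to LS_L_1 was 51.0-fold (95% counting interval 33.8 to 80.9). LS_L_1 and LS_L_3 did not differ in zp3c beyond counting error, with a ratio of 0.974 (0.498 to 1.94).

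zpd (XM_008311140.1, chr6:2033301-2037609, plus strand) encodes a ZP domain protein of the ZPD type, known from egg coats of fishes, frogs and birds. Its normalized reads were 2.49, 490.2 and 10.4 in the LS_L pools and 492, 175 and 17.0 in the HS_L pools. LS_L_2 and HS_L_1 were level for this gene, with a ratio of 0.996 (0.879 to 1.13).

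zpcx (XM_008316117.1, chr1:2597480-2601089, plus strand) encodes another ZP domain protein. It was the envelope gene with the most reads. In the LS_L pools it had 4.15, 1944 and 49.6 normalized reads, and in the HS_L pools 1421, 400 and 56.2. It was the only one of the 5 with its highest value in an LS_L pool, LS_L_2. The range from LS_L_2 down to LS_L_1, which held 5 reads, was 468-fold (200.3 to 1444). By scaled RPKM zpcx ranked 709th among all features in LS_L_2 and 13448th in LS_L_1.

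**Figure D1:**
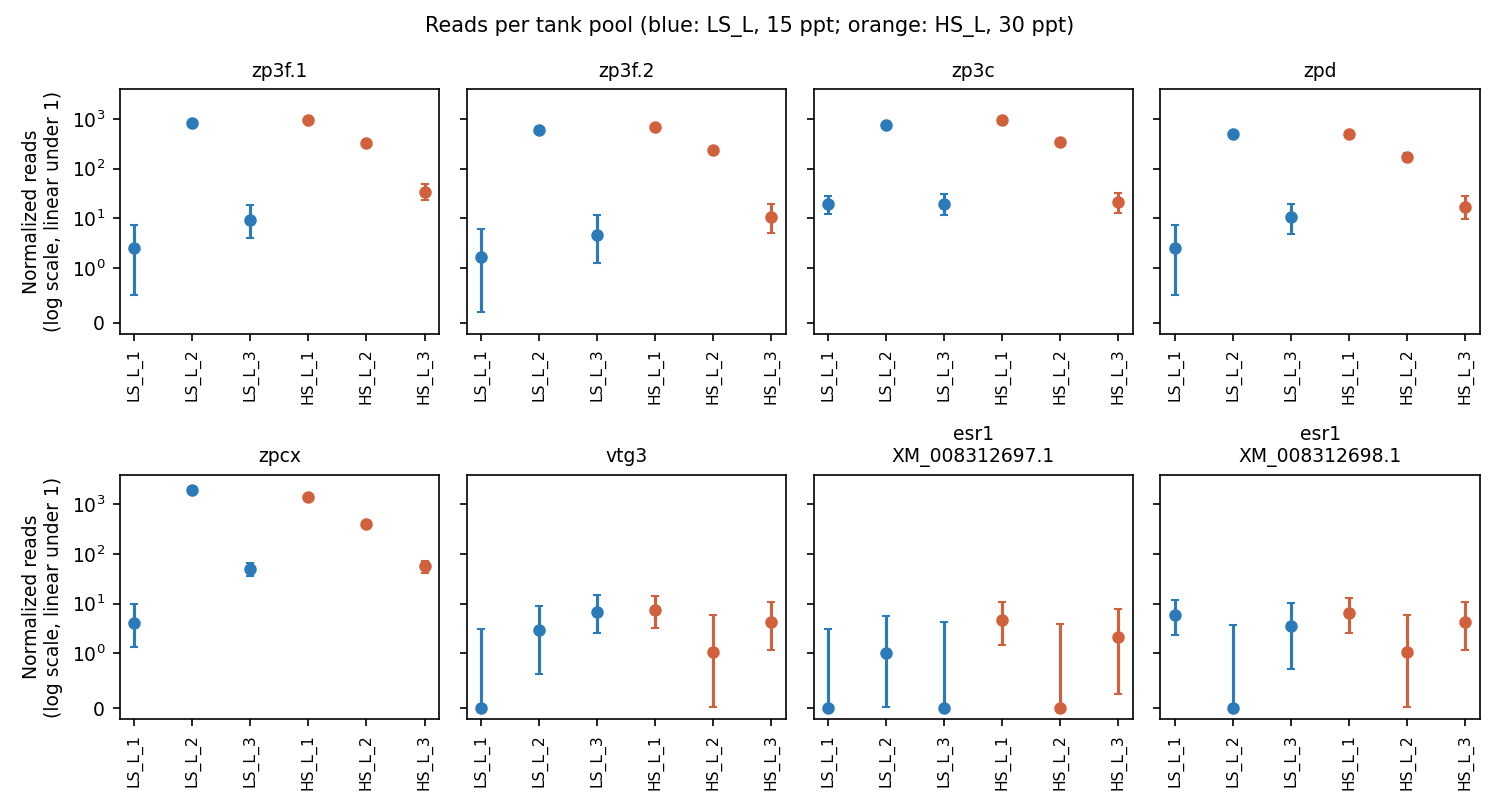
Normalized reads of the 8 features in each tank pool, on an axis that is logarithmic above 1 and linear below it, with blue points for LS_L, orange points for HS_L and bars for 95% Poisson counting intervals (bars shorter than a point are hidden by it). The 5 egg envelope genes are high in LS_L_2, HS_L_1 and HS_L_2 and low in the other pools, while vtg3 and esr1 stay at or under 7.32 normalized reads in every pool.

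The salinity comparison of these 5 genes was made with limma on log2(scaled RPKM + 1), over the 9302 features with a mean scaled RPKM of at least 1. To be called, a feature had to change by more than 1 on the log2 scale with a p under 0.05 after Benjamini-Hochberg adjustment. The envelope genes entered this fit through the libraries in which they were high. The fold changes of LS_L over HS_L were all below 0, against a median of 0.03 over all features in the fit, and each was smaller than its own standard error or close to it. The log2 fold change was -1.69 for zp3f.1 (SE 1.61, adjusted p = 0.927 by limma), -1.30 for zp3f.2 (SE 1.54, adjusted p = 0.940) and -1.12 for zp3c (SE 1.43, adjusted p = 0.947). It was -1.03 for zpd (SE 1.32, adjusted p = 0.947) and -1.03 for zpcx (SE 1.60, adjusted p = 0.960). By limma 0 of the 5 genes were called, beside 0.043% of all features in the fit, and limma-voom also called 0. At an unadjusted p under 0.05 there were 0 of the 5, beside 6.58% of all features. The groups did not overlap for 0 of the 8 members, beside 12.7% of the features in the fit. This overlap rested on LS_L_2 for the envelope genes. Without that pool every LS_L value of all 5 genes lay below every HS_L value, and 19.9% of the features in the fit then had groups that did not overlap. By limma 0 of the 5 genes were called without LS_L_2 either, beside 0 of all 9302 features in the fit.

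The difference between the group means was small beside the spread inside the groups. For zp3f.1 the mean was 283 ± 481 normalized reads in LS_L and 443 ± 476 in HS_L (SD, n = 3 each). For zpcx it was 666 ± 1107 in LS_L and 626 ± 710 in HS_L, so that on the linear scale the LS_L mean was the higher one while the log2 fold change was below 0. The within-group SD of the log2 values lay between 2.09 for zpd and 2.57 for zp3f.1. These SDs stood at the 99.4th to the 99.8th percentile of all features in the fit. As the genes passed the filter through the libraries in which they were high, this rank is no separate result. Single pools set the size of the fold changes. Without LS_L_2 the log2 fold change of zp3f.1 was -3.38 and that of zpcx -2.73, and without LS_L_1 they were -0.75 and 0.084.

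**Figure D2:**
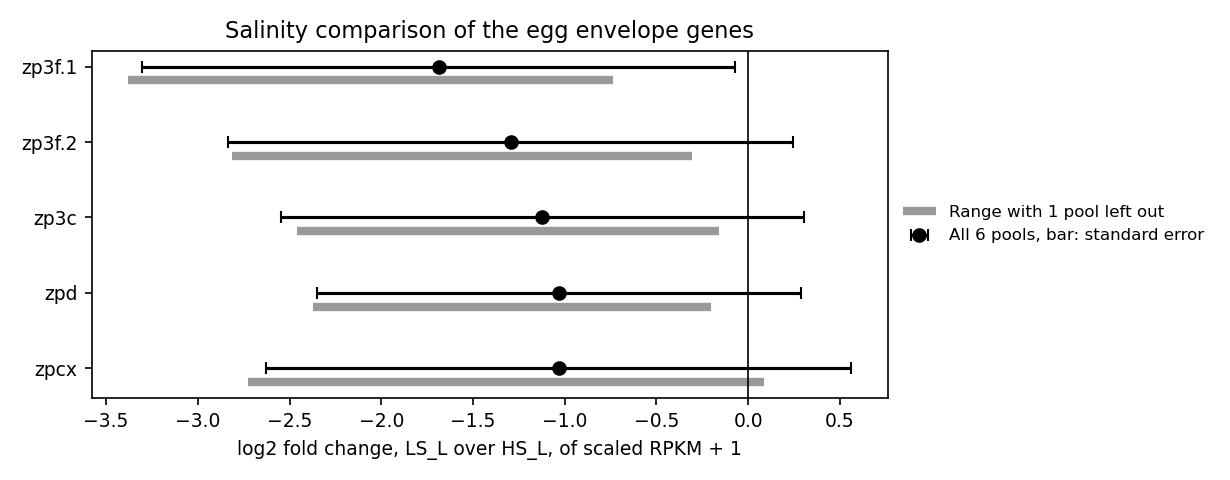
Log2 fold change of LS_L over HS_L for each egg envelope gene on the log2(scaled RPKM + 1) scale, with black points and standard error bars for all 6 pools and grey bars for the range when 1 pool was left out. The estimates lie between -1.69 and -1.03, and the grey range of zpcx crosses 0, reaching 0.084.

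Although the genes sit on 4 chromosomes, their profiles over the pools ran together. The pairwise Pearson correlation of their log2 levels over the 6 libraries lay between 0.974 for zp3c with zpcx and 0.998 for zp3f.2 with zp3c. These are descriptions of 6 points that share libraries and depth. The ranks of zp3f.1, zp3f.2, zp3c and zpd were identical, and zpcx differed only in having LS_L_2 before HS_L_1. HS_L_1, LS_L_2 and HS_L_2 were the 3 highest libraries, in any order, for 400 of the 9302 features in the fit (4.30%), the 5 envelope genes among them. A highest library at least 10 times the lowest was found in 545 features (5.86%).

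Summed over the 5 genes, the scaled RPKM was 1.08, 167 and 3.13 in LS_L_1, LS_L_2 and LS_L_3 and 172, 56.6 and 5.14 in HS_L_1, HS_L_2 and HS_L_3. The sums of LS_L_2 and HS_L_1 were close to each other, while the make-up behind them differed. zpcx took 32.2% of the summed scaled RPKM in LS_L_2, 22.9% in HS_L_1 and 19.6% in HS_L_2. Per length, zpcx stood at 1.27 times zp3f.1 in LS_L_2 (95% counting interval 1.17 to 1.38) but at 0.804 times zp3f.1 in HS_L_1 (0.743 to 0.870) and 0.663 times in HS_L_2 (0.569 to 0.773). The intervals of LS_L_2 and HS_L_1 did not overlap. Between these pools zpcx had 1.37 times as many normalized reads in LS_L_2 as in HS_L_1 (1.28 to 1.46), whereas zp3f.1 had 0.869 times (0.792 to 0.952) and zp3c 0.766 times as many (0.697 to 0.842). The neighbours zp3f.1 and zp3f.2 kept an even ratio where reads were plentiful, with zp3f.1 at 1.66, 1.62 and 1.66 times zp3f.2 per length in LS_L_2, HS_L_1 and HS_L_2. These intervals cover counting error only, and the pools are single tanks.

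The make-up of the low pools was known less well. The 5 genes together had 36 reads in LS_L_1, 81 in LS_L_3 and 131 in HS_L_3. By counted reads zp3c took 62.1% of the sum in LS_L_1, at 5.32 times zp3f.1 per length with an interval of 1.61 to 27.7, although its assembled transcript is listed at 0 FPKM there. In contrast, its share was between 14.5% and 22.0% in the other pools. zpcx took 43.8% in LS_L_3 and 30.3% in HS_L_3. In HS_L_3 zp3f.1 stood at 3.77 times zp3f.2 (1.81 to 8.61), on 32 and 10 reads. This interval overlapped those of LS_L_2 (1.49 to 1.85) and HS_L_2 (1.39 to 1.98). It lay just above that of HS_L_1 (1.47 to 1.78).

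**Figure D3:**
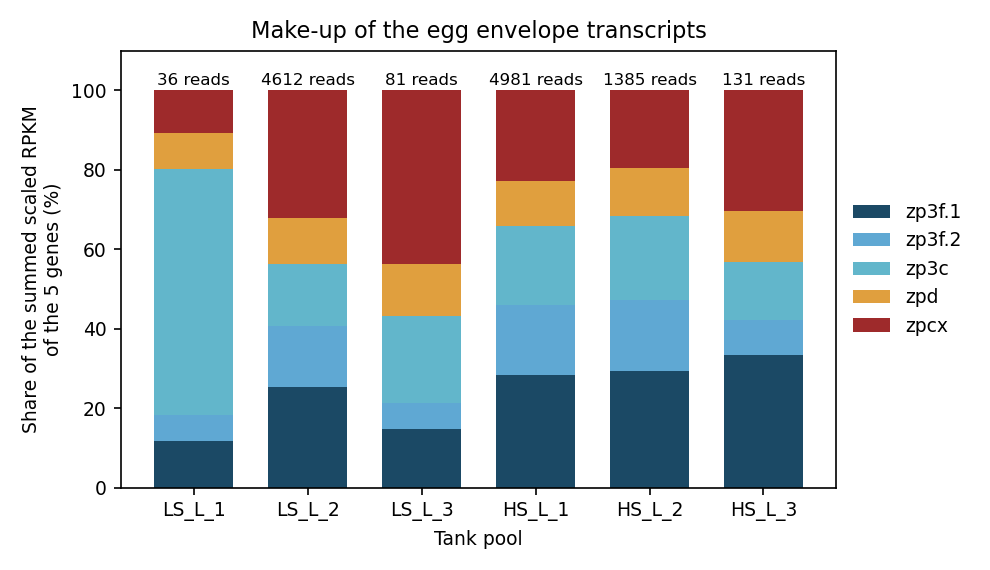
Share of each egg envelope gene in the summed scaled RPKM of the 5 genes, as stacked bars per tank pool in percent, with the number of reads behind each bar written above it. zpcx holds 32.2% in LS_L_2 against 22.9% in HS_L_1, and zp3c holds 62.1% in LS_L_1, where the bar rests on 36 reads.

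vtg3 (XM_008329605.1, chr2:532100-540873, minus strand) encodes a vitellogenin, which in zebrafish lacks the phosphorus-rich phosvitin domain. Its normalized reads were 0, 3.00 and 6.92 in the LS_L pools and 7.32, 1.07 and 4.24 in the HS_L pools, from 0 to 8 reads per library. A count of 0 in LS_L_1 allows up to 2.49 normalized reads. Its scaled RPKM did not exceed 0.0918 in any pool, whereas the hepatocyte markers in the same libraries summed to at least 51460 scaled RPKM. Its highest value was in HS_L_1, one of the high envelope gene pools, and its values in the others, LS_L_2 and HS_L_2, were lower, with all of these counts near the floor of 3 reads. The groups of vtg3 overlapped. The difference of the mean log2 levels was -0.02 (two-sided exact permutation test, p = 0.7, where 3 against 3 pools cannot go below 0.1). Other vitellogenin or ZP genes that the annotation lists only under LOC symbols, without a description, were not analysed here.

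esr1 is annotated on the minus strand of chromosome 7 with transcripts XM_008312697.1 (chr7:1559416-1568084) and XM_008312698.1 (chr7:1559416-1568817). XM_008312697.1 had 0, 1.00 and 0 normalized reads in the LS_L pools and 4.57, 0 and 2.12 in the HS_L pools. XM_008312698.1 had 5.81, 0 and 3.46 in the LS_L pools and 6.40, 1.07 and 4.24 in the HS_L pools. Together they held 30 reads over the 6 libraries, with 7, 1 and 3 in LS_L and 12, 1 and 6 in HS_L. The groups overlapped for both transcripts, and the exact permutation p was 0.4 for XM_008312697.1 and 0.7 for XM_008312698.1. Without HS_L_2, XM_008312697.1 was higher in both remaining HS_L pools than in every LS_L pool, at 0 to 5 reads, and 22.2% of the features in the fit then had groups that did not overlap. Of the pools with high or intermediate envelope gene levels, HS_L_1 held the most esr1 reads, 12, while LS_L_2 and HS_L_2 each held 1.

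These esr1 counts are bounded by the way reads were assigned. The transcripts share 8669 of the 9402 bases of the longer span, and in the union mode of HTSeq a read that falls on both features is counted for neither. The other 6 members overlap no feature on their strand. Among all features, 69.96% of the 17345 that overlap another on their strand had no reads in any library, against 7.97% of the 17384 that overlap none.

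The deposited tables of assembled transcripts give a second reading of esr1. They list the FPKM of the assembled transcript behind each transcript start, end or splicing event. Summed over its transcript ends, esr1 had 2.22, 1.43 and 2.06 FPKM in LS_L_1, LS_L_2 and LS_L_3 and 0.749, 1.00 and 1.68 in HS_L_1, HS_L_2 and HS_L_3. The RPKM of the counted features summed to 0.165, 0.0230 and 0.0630 in the LS_L pools and 0.308, 0.0213 and 0.136 in the HS_L pools, lower in every library. Assembled ends also lay past the annotated end at chr7:1559416, at chr7:1558506, 1558508 and 1558505 in LS_L_1, LS_L_2 and LS_L_3 and at chr7:1558386 in HS_L_2. In these libraries the FPKM thus covers sequence outside the counted features. The part of these ends and of the read assignment in the gap was not tested. The order of the groups also turned around, with an FPKM of 1.90 ± 0.42 in LS_L and 1.15 ± 0.48 in HS_L (SD, n = 3 each). The sums took in unlike numbers of ends, 2 in each LS_L pool and in HS_L_2 but 1 in HS_L_1 and in HS_L_3. The part of these numbers in the difference was not tested. For the difference in FPKM the two-sided exact permutation p was 0.2, where 3 against 3 pools cannot go below 0.1. HS_L_3 lay above LS_L_2.

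For zpd and vtg3, which overlap no other feature, the 2 readings lay closer together. zpd had 0.101, 15.8 and 0.286 FPKM in the LS_L pools and 18.6, 5.28 and 0.526 in the HS_L pools, against 0.123, 18.8 and 0.328 and then 23.6, 6.07 and 0.624 deposited RPKM. vtg3 had 0, 0.0282 and 0.0539 FPKM in the LS_L pools and 0.0700, 0.00890 and 0.0372 in the HS_L pools, so it was near 0 in both readings. zp3c, also without an overlapping feature, had 0, 21.8 and 0.183 FPKM in the LS_L pools and 33.2, 9.13 and 0.578 in the HS_L pools. Its deposited RPKM was 0.844, 25.7 and 0.556 in the LS_L pools and 41.8, 10.5 and 0.699 in the HS_L pools. In LS_L_1 and LS_L_3 the readings of zp3c were thus far apart in relative terms, with the FPKM the lower one. No events were linked to zp3f.1, zp3f.2 or zpcx.

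The events also describe the end of esr1. A retained or spliced intron at chr7:1559951-1560103 was listed in the 3 LS_L libraries and in HS_L_2. The form that keeps the intron carried 1.39, 0.572 and 0.509 FPKM in LS_L_1, LS_L_2 and LS_L_3 and 0.611 FPKM in HS_L_2. HS_L_1 and HS_L_3 had only an end at the annotated position, chr7:1559416. The annotated first exon of XM_008312698.1, chr7:1568469-1568817, was listed at 0 FPKM in LS_L_1, LS_L_2, LS_L_3 and HS_L_1.

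**Figure D4:**
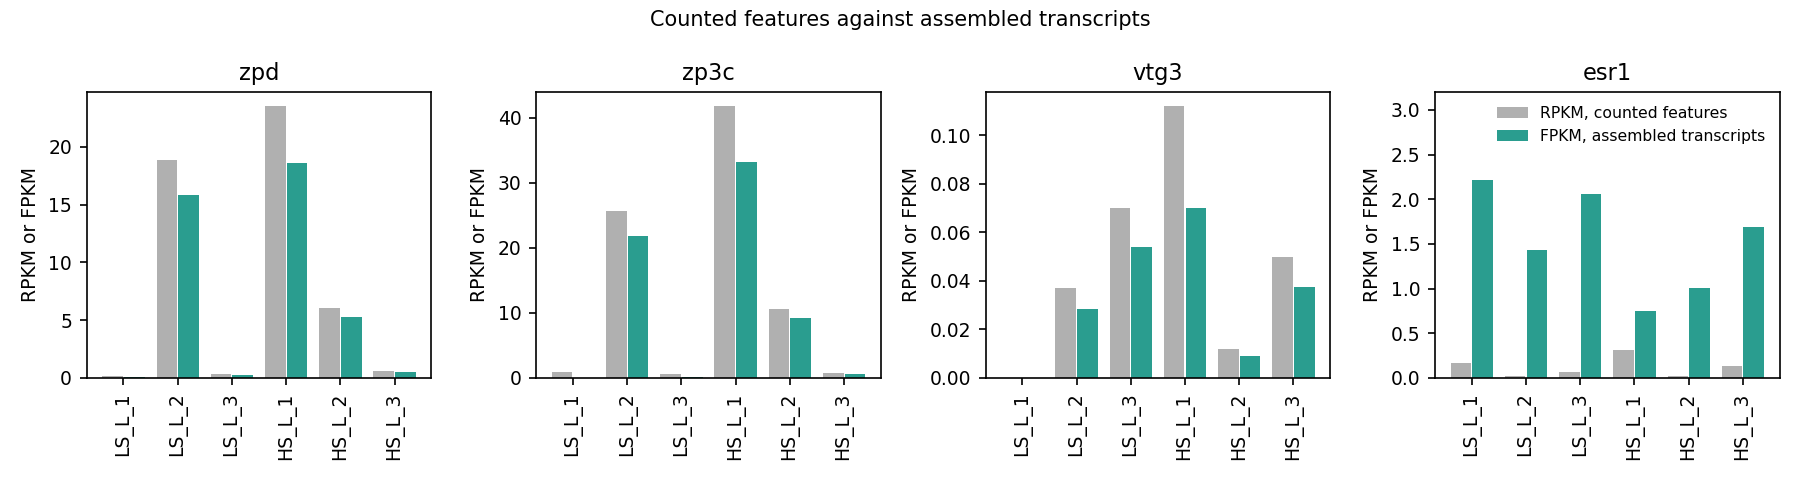
Deposited RPKM of the counted features (grey bars) and summed FPKM of the assembled transcripts (green bars) for zpd, zp3c, vtg3 and esr1 in each tank pool, on a linear axis per gene. The bars of zpd lie close together in every pool and zp3c is listed at 0 FPKM in LS_L_1 against 0.844 RPKM, while esr1 reaches 2.22 FPKM in LS_L_1 where its counted features have 0.165 RPKM.

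The egg envelope genes moved over the pools with transcripts known from oocytes. The oocyte marker list held 16 features, among them zar1 and org, which act in the egg before the embryonic genome is used, the linker histone gene h1m, the growth factor gene gdf9 and the germ cell helicase gene ddx4. Its summed scaled RPKM was 0.546, 147 and 2.60 in LS_L_1, LS_L_2 and LS_L_3 and 138, 45.8 and 5.32 in HS_L_1, HS_L_2 and HS_L_3. The pools stood in the same order as for zpcx, from LS_L_2 down to LS_L_1. All 4 oocyte features in the fit (zar1, org, h1m and gdf9) had HS_L_1, LS_L_2 and HS_L_2 as their highest libraries, beside 4.30% of all features in the fit. Like the envelope genes, these 4 entered the fit mainly through the libraries in which they were high. Their log2 fold changes were all below 0 with a median of -1.37, against 0.03 over all features in the fit. By limma 0 of 4 were called, beside 0.043% of all features in the fit. The ratio of the summed envelope genes to zar1, h1m, org, gdf9 and ddx4 lay between 0.966 and 1.25 in 5 pools and was 1.98 in LS_L_1, where both sums were close to 1 scaled RPKM or lower. The oocyte transcription factor gene figla, not in this ratio, had 0, 2.00 and 1.15 normalized reads in the LS_L pools and 7.32, 0 and 0 in the HS_L pools, so it had no reads in HS_L_2, where the envelope genes were intermediate. The remaining genes of the oocyte list, bmp15, nobox, dazl, buc and sycp3, were at 0 reads in all pools, and each of their 10 features overlaps another feature on its strand. The part of oocyte transcripts in the envelope values was not tested. In pooled tissue, fewer cells of a type and less RNA per cell cannot be told apart.

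Other cell type lists had other profiles. The leukocyte list (6 features) summed to 3599 scaled RPKM in LS_L_1 and to between 403 and 1116 in the other pools. The sum was led by the lysozyme gene lyz, with 28630 normalized reads in LS_L_1 and 1375 to 6046 elsewhere, and by cd74a, with 27902 and 6260 to 13208. LS_L_1, the lowest pool of every envelope gene, thus stood apart in the sum of this list. Its other members did not share this. The main mpx feature was highest in HS_L_1, at 852 normalized reads against 237 in LS_L_1. The ptprc features, each overlapping 1 other feature, had 0 reads in all pools. The ovarian follicle list, with 7 features, summed to between 0.673 and 1.52 scaled RPKM and was lowest in LS_L_2. That sum rested on inha, foxl2a and amh, at 0.915 to 27.6 normalized reads, of which only inha was lowest in LS_L_2. The 4 features of the list without reads are all transcripts of fshr, each overlapping 3 other features on its strand. The exocrine pancreas list (3 features) summed to 12.5, 70.3 and 77.8 in the LS_L pools and 602, 2844 and 45.4 in the HS_L pools. It was thus highest in HS_L_2, where the envelope genes were intermediate. The skeletal muscle list (12 features) summed to 27.7, 0.441 and 0.381 in the LS_L pools and 44.3, 39.6 and 3.76 in the HS_L pools. It was near its lowest in LS_L_2, where the envelope genes were high. The part of these cells and tissues in the envelope values was not tested.

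**Figure D5:**
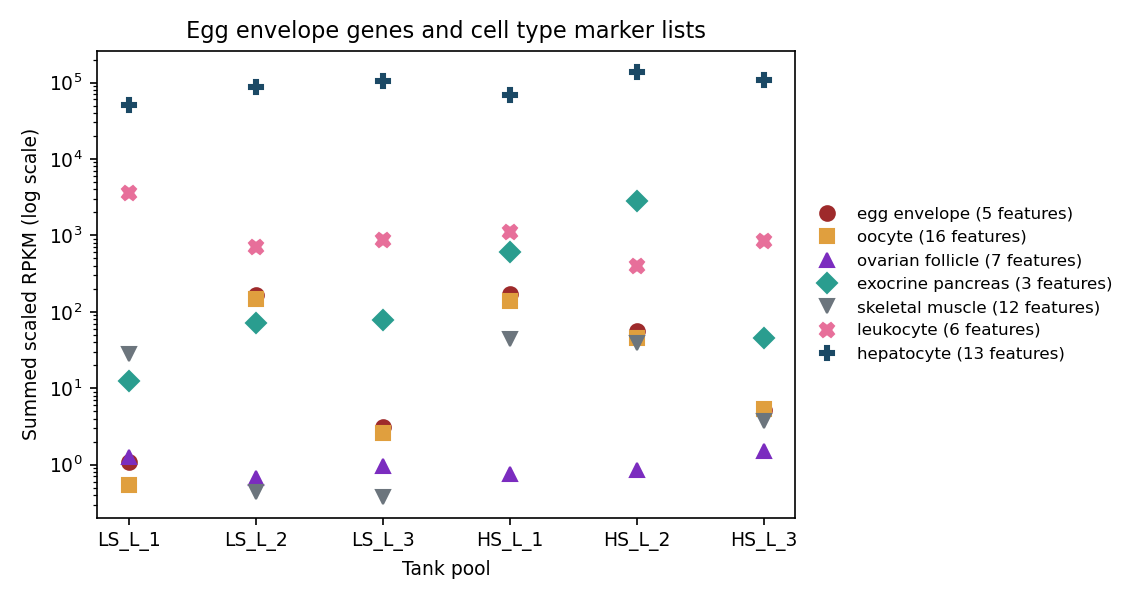
Summed scaled RPKM of the egg envelope genes and of 6 cell type marker lists in each tank pool, on a logarithmic axis. The envelope and oocyte points lie on or near each other in every pool, with 167 and 147 in LS_L_2 and 172 and 138 in HS_L_1, while the hepatocyte list stays between 51460 and 137500.

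By likeness to the mean profile of the 5 envelope genes, the nearest features outside the family were btg4, LOC103394264, pabpn1l, LOC103396043 and LOC103387155. Their Pearson correlations with that profile over the 6 libraries were between 0.998 and 0.999. btg4 encodes a protein that in mouse oocytes and early embryos takes part in the decay of maternal messages. Its normalized reads were 1.66, 715 and 8.07 in the LS_L pools and 665, 238 and 13.8 in the HS_L pools. pabpn1l, a poly(A)-binding protein gene of mouse oocytes, had 4.98, 879 and 9.22 in the LS_L pools and 1093, 341 and 23.3 in the HS_L pools. Both had their 3 highest values in the pools in which the envelope genes were high, which follows from their selection by likeness to that profile. The features most like the summed esr1 transcripts were mfng, LOC107989866, acss3, XM_008318416.1 and jazf1b, with correlations of 0.979 to 0.995. That likeness rests on 1 to 12 esr1 reads per library.

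The other genes of the estrogen pathway were followed as lists. The steroid receptor list had 23 features of 11 genes, of which 19 overlap another feature and 13 had no reads in any library. Only the androgen receptor gene ar entered the fit. It had 1.51, 2.06 and 2.01 scaled RPKM in the LS_L pools and 3.52, 5.10 and 2.92 in the HS_L pools. Every LS_L pool lay below every HS_L pool for ar, and its log2 fold change was -0.74 (SE 0.22), but it did not pass the adjusted test (adjusted p = 0.631 by limma). Groups that do not overlap were found in 12.7% of the features in the fit. The liver also held low levels of the glucocorticoid receptor gene nr3c1, at 0.484 to 1.04 scaled RPKM, and of the estrogen receptor gene esr2b, at or under 0.133 scaled RPKM in each annotated transcript. The esr2b and esr2a transcripts each overlap 1 other feature on their strand, and their counts exclude reads shared with it. The esr2a transcripts had 0 reads in all libraries.

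Cofactors of the estrogen receptor showed no called change. Of 22 cofactor features 8 were tested, 2 with a fold change above 0 and 6 below, with a median of -0.09. By limma 0 of the 8 were called, beside 0.043% of all features in the fit. At an unadjusted p under 0.05 by limma there were 0 of the 8, beside 6.58% of all features in the fit. The pioneer factor gene foxa3, which opens chromatin for nuclear receptors in liver, was the most abundant, at 28.8 to 58.1 scaled RPKM. greb1, an estrogen-induced gene in mammals, stayed at or under 0.0327 scaled RPKM.

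Among genes that make, bind or inactivate sex steroids, expression ranged from abundant to undetected. The steroid synthesis genes cyp17a2 and hsd17b1 had 0 reads in most pools. Each hsd17b1 feature overlaps 1 other feature on its strand, and its counts exclude reads shared with it. Of 22 features 10 were tested, 7 above 0 and 3 below, with a median of 0.29. By limma 0 of the 10 were called, beside 0.043% of all features in the fit. One of the 10 had an unadjusted p under 0.05, beside 6.58% of all features, and in 2 of the 10 the groups did not overlap, beside 12.7%. Both of these features are 5-alpha-reductase family genes, srd5a1 and srd5a3. The feature with the low p was srd5a1 (XM_008331235.1), with 1.56, 2.12 and 2.44 scaled RPKM in the LS_L pools and 1.06, 0.564 and 0.918 in the HS_L pools. The groups of srd5a1 did not overlap and its log2 fold change was 0.72 (SE 0.21, adjusted p = 0.609 by limma). Its counts exclude reads shared with 1 overlapping feature. srd5a3 had 2.57, 2.28 and 2.22 scaled RPKM in the LS_L pools and 1.71, 2.00 and 1.98 in the HS_L pools, with a log2 fold change of 0.21 (SE 0.16, adjusted p = 0.899 by limma). shbg, which encodes the plasma carrier of sex steroids, was abundant at 172 to 505 scaled RPKM, and its groups overlapped.

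The list of genes that process or take up yolk and envelope proteins had 21 features, 6 of them tested, 2 above 0 and 4 below, with a median of -0.02. At an unadjusted p under 0.05 by limma there was 1 of the 6, with overlapping groups, beside 6.58% of all features in the fit. By limma 0 of the 6 were called, beside 0.043%. Over all 9302 features the fold changes were above 0 for 5035 and below 0 for 4267.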

How the data were processed

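RNA of 6 pooled liver samples was sequenced. The authors aligned reads with TopHat, dropped multiply mapped ones, ran HTSeq in union mode and deposited RPKM, with 1 column per library. The submitters' processing notes name TopHat2 2.0, Bowtie2 2.0.6 and DESeq. A deposited table holds a normalized signal per group (the authors' mean of reads over size factors) and feature lengths. The deposited event files give the FPKM of each assembled transcript, by a tool not given in the sources used here. Columns of the authors' own comparisons were not used.

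RPKM times length gave back whole reads (99.83% to 99.89% of values whole within 0.05 read), from which median-of-ratios size factors of 0.868 to 1.20 were computed. The group means then came within 0.1% of the deposited signal for 99.98% of features. The test was limma 3.58.1 in R 4.3.3 (trend and robust settings) on log2(scaled RPKM + 1), without covariates. This scale understates changes of low genes. Features under a mean of 1 got a two-sided exact permutation test. Counting intervals are 95% Poisson or binomial intervals, cover counting error only, and the floor for a count of 0 is 3 reads. Python 3.11.15 with scipy 1.17.1 did the rest. On simulated data for this comparison (9302 features, 200 changed by a log2 fold change of 2, dispersion 0.1) the code called 180 (90%), 0 with the wrong sign, and 6 unchanged features. The simulated spread was far smaller than that of the envelope genes, whose within-group log2 SD was 2.09 to 2.57. This recovery therefore does not apply to them.

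Names came from RefSeq accessions for 20016 features, positions on Cse_v1.0 (overlap at least 0.5) for 13026 and the identifier for 86, and 1623 had none. Genes named are the 8 members, by likeness 5 features for the envelope profile and 5 for esr1, and list members whose groups do not overlap at an unadjusted p under 0.05. Marker genes, srd5a2a, srd5a3, cyp17a2, hsd17b1, nr3c1, esr2a, esr2b, foxa3, greb1, shbg and the genes under other observations were named after their values were seen. Members and lists were chosen with earlier results of these data known. Alternatives were other scalings, filters and pseudocounts, limma-voom, a replicate block and leaving out each library.

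Replicate numbers come from the sample labels, and no source says that same-numbered tanks shared anything. Deviations from the group means correlated between same-numbered libraries at 0.173, 0.165 and 0.231, and crossed pairs at -0.455 to 0.220.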

Additional observations from a re-analysis of the deposited data

How the results depend on the processing

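The number of members past both thresholds was 0 under every alternative run. The groups of 0 of 8 members did not overlap under each scaling, beside 12.7% of the features in the fit under the main scaling. Leaving out 1 library, tried after the values were seen, gave 0 to 5 such members, 5 (the envelope genes) without LS_L_2, 1 (XM_008312697.1 of esr1) without HS_L_2 and 0 without each of the others. Of the envelope genes, only zp3f.1 differed between LS_L_3 and HS_L_3 beyond counting error. The share of the features in the fit was 19.9% without LS_L_2, 22.2% without HS_L_2 and 17.5% to 26.4% without each of the others. The profiles of the 5 envelope genes ran together, so they are not 5 separate results. Over 14 alternatives the envelope genes gave 66 log2 fold changes, 65 below 0, with a lowest adjusted p of 0.792 by limma. Of these, 2 had an unadjusted p under 0.05 by limma, those of zp3f.1 and zpcx, both without LS_L_2. In that setting 380 of the 9302 features in the fit passed the same unadjusted threshold. The exception in sign was zpcx, at 0.084 without LS_L_1. Leaving out 1 library gave ranges of -3.38 to -0.74 for zp3f.1, -2.81 to -0.31 for zp3f.2, -2.46 to -0.16 for zp3c, -2.37 to -0.20 for zpd and -2.73 to 0.084 for zpcx. A pseudocount of 0.1 moved the values to between -2.70 (zp3f.1) and -1.48 (zp3c), and limma-voom to between -3.07 and -1.61. Where every library had to hold 10 reads or more, zp3c was the only envelope gene left to test.

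Over all features, 4 were called. The count was 10 with library size only, 1 without a filter (21231 features tested), and 7 under the minimum of 10 reads per library. Without 1 library it ranged from 0 to 17. It was 17 without LS_L_1, 2 without HS_L_2 and 0 without each of the others. With the replicate number as a block 0 were called (lowest adjusted p 0.0535 by limma, 788 at an unadjusted p under 0.05), and the block changed no call of a member. The cause of these shifts was not tested. vtg3 and esr1 had 0 to 8 reads per feature and library, and at these counts salinity differences were not detectable. The esr1 counts also leave out reads shared by its transcripts.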

Other observations

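With the 5 nearest features included, 129 features outside the family had a correlation of at least 0.95 with the envelope profile over the 6 libraries, and in 104 of them the highest library was also at least 10 times the lowest. The median correlation over the features in the fit was -0.09. Several carry names known from eggs and early embryos, and they were picked here for those names. The pluripotency factor genes nanog and pou5f3 are examples. nanog had 1.66, 546 and 4.61 normalized reads in LS_L_1, LS_L_2 and LS_L_3 and 533, 160.0 and 18.04 in HS_L_1, HS_L_2 and HS_L_3. pou5f3 had 0, 588 and 5.76 in the LS_L pools and 523, 176 and 9.55 in the HS_L pools. The B-type cyclin gene ccnb2, which drives entry into mitosis and meiosis, had 11.6, 828 and 12.7 in the LS_L pools and 735, 259 and 26.5 in the HS_L pools. The importin gene kpna7, active in mammalian oocytes, had 12.5, 851 and 11.5 in the LS_L pools and 1031, 382 and 33.9 in the HS_L pools. In each of these the same 3 pools were highest as for the envelope genes. This follows from their selection by correlation with the envelope profile and is no separate result.

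lrp13, a relative of the lipoprotein receptors, had 9.96, 341 and 2.31 normalized reads in the LS_L pools and 533, 233 and 22.3 in the HS_L pools (correlation 0.988). The steroid dehydrogenase gene hsd17b12a, under the filter, had 0.0207, 2.35 and 0.202 scaled RPKM in the LS_L pools and 1.58, 0.560 and 0.239 in the HS_L pools, again highest in LS_L_2, HS_L_1 and HS_L_2. Its paralog hsd17b12b had 14.8, 21.2 and 25.6 in the LS_L pools and 13.8, 16.3 and 16.9 in the HS_L pools, with no such peaks.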
